A study of Mus musculus with 12 samples.

Results

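The genes described here drive cells through DNA replication and mitosis. They were chosen by name, as all probe sets whose platform annotation symbol was on a list of 41 cell cycle and replication genes. The array carried 38 of them out of 8251 genes with a probe set of their own, by 53 probe sets. No probe set was matched to Tyms, Ccnb1 or Bub1b, so their levels were not analysed here. Signal above the floor on at least 3 of the 12 arrays was found for 37 genes and 48 probe sets, and these were tested. The 3 probe sets of Bub1 stayed at the floor on all 12 arrays. The genes were divided by role into the replication core (9 genes tested: Mcm2 to Mcm7, Pcna, Rrm1, Rrm2), other replication and nucleotide genes (6), mitosis genes (12), cyclin D genes (3), G1 to S control genes (5) and chromatin genes (2).

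Total RNA came from QF and TA muscle, taken here as quadriceps femoris and tibialis anterior of the thigh and lower leg, of mice aged 3 weeks. The Dysf_null group was the line C57BL/10-SJL.Dysf, labelled Dysf -/-, and the Control group was C57BL/10, labelled Dysf +/+. The 4 groups thus formed had 3 arrays apiece. Dysf encodes dysferlin, a membrane protein needed to reseal damaged muscle fibres. The name of the mutant line says that its allele came from the SJL strain, so the allele and any SJL sequence around it cannot be told apart. No probe set was matched to Dysf, so the genotype was not checked by these values. The labels do not state whether the arrays within a group used different animals, so the p-values reflect only how these arrays scatter, and that scatter may be technical.

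In a dividing cell, cyclin D with Cdk4 starts the exit from G1, cyclin E with Cdk2 carries the cell into S phase, and the E2F factors released on the way switch on replication genes. The Mcm proteins form the helicase that opens DNA, Pcna is the clamp that holds the polymerases, and Rrm1 and Rrm2 form the enzyme that makes deoxynucleotides. Cyclins A and B with Cdk1 then drive mitosis, where the Aurora and Plk1 kinases build the spindle and separate the chromosomes. Muscle fibres themselves have left the cycle, while satellite cells and the interstitial, blood and vessel cells of a growing muscle can divide.

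Because replication and mitosis genes are known to be switched on through different promoter elements, promoters are shown for the replication, mitosis and cyclin D genes with the smallest p for the average genotype difference for which the table held a window. They come from RefSeq (GRCm38.p6) and run from 250 bases before to 50 bases after the annotated start, on the gene's strand. The windows belong to Mcm5 (chr8:75109259-75109558, plus strand), Lig1 (chr7:13276925-13277224, plus strand), Mki67 (chr7:135716330-135716629, minus strand), Aurka (chr2:172370521-172370820, minus strand) and Ccnd3 (chr17:47504801-47505100, plus strand). Capitals mark the letters of an E2F element (TTTCGCGC or TTTGGCGC), of the cell cycle homology region (TTTGAA) and of the CCAAT box (CCAAT), each searched on both strands, and marked letters may overlap.
Mcm5: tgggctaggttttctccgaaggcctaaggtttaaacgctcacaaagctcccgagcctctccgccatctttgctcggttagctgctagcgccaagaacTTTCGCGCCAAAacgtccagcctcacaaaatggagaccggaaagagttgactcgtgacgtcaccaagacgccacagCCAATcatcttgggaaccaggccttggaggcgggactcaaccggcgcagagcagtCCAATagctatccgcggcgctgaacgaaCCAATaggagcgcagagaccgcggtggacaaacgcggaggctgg
Lig1: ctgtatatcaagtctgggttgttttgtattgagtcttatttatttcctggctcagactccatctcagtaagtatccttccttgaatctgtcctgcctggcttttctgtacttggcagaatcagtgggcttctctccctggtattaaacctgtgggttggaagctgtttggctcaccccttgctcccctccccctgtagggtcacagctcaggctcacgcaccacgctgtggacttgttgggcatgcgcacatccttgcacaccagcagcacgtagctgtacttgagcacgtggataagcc
Mki67: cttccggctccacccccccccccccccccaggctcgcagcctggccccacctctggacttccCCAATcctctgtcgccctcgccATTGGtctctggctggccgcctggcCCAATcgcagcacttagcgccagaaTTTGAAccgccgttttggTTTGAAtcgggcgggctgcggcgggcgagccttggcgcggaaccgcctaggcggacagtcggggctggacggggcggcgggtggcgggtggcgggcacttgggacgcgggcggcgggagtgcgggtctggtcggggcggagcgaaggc
Aurka: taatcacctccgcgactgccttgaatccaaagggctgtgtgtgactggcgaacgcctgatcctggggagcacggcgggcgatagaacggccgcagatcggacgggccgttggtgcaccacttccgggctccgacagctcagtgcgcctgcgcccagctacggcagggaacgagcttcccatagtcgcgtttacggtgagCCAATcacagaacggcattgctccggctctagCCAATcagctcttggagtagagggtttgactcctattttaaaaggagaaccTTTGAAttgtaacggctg
Ccnd3: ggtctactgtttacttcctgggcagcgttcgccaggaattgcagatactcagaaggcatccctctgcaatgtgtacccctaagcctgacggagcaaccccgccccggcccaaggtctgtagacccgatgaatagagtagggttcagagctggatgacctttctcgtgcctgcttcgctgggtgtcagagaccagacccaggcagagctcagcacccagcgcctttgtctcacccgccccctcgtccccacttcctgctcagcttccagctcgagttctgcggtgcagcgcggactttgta
The Mcm5 window held E2F letters on both strands in an overlapping run and 3 CCAAT boxes. The Mki67 and Aurka windows held TTTGAA and CCAAT letters and no E2F letters, and the windows of Lig1 and Ccnd3 held none of the 3. The table had 3 windows for Lig1 and 2 for Ccnd3, and the one listed first was used. The other Ccnd3 window held CCAAT letters. What the other Lig1 windows held is not given here. In the class of Lig1, 2 of 7 genes had E2F letters in any of their windows, against 1 of 7 in the first listed.

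Windows were found for 35 of the 41 genes, whether or not a gene was tested on the arrays. The 12 mitosis windows are thus not those of the 12 mitosis genes tested. They include Ccnb1, Bub1 and Bub1b and lack Ccna2, Aurkb and Kif20a. E2F letters were in 4 of 8 replication core windows and in 1 of 12 mitosis windows (Cdk1), against 0.833% of all 27025 gene windows. The TTTGAA letters were in 8 of 12 mitosis windows (Ccnb2, Cdk1, Top2a, Mki67, Bub1b, Plk1, Aurka and Cdc20) and in 1 of 8 replication core windows (Mcm2), against 18.1% of all windows. CCAAT letters were in 25 of the 35 windows, or 71.4%, against 37.9% of all windows. These are matches of letters and not measured binding, and a window without a match shows only that the letters are not in it.

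In mice lacking dysferlin most of these genes had somewhat higher levels than in controls in both muscles, and none passed the test alone. In QF, 40 of 48 probe sets had a difference (Dysf_null minus Control, log2 scale) above 0, against 48.5% of all 10331 probe sets. In TA the count was 39 of 48, against 48.8%, and for the average of the muscles 43 of 48, against 47.6%. These counts include probe sets at the floor on every control array compared, whose sign the floor fixes: Prim1 and Top2a in each comparison and also Cdk1 and 1 Kif20a probe set in QF. Without probe sets wholly at the floor in a compared group, the counts were 36 of 44 in QF, 37 of 46 in TA and 41 of 46 for the average, against 48.5%, 49.1% and 47.6% of all such probe sets. The median difference over the 37 genes was 0.36 in QF and 0.32 in TA, while the median over all 7310 genes was -0.00 in each. Differences between groups of 3 arrays are given with their SE from the fit.

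At an adjusted p under 0.05 (limma, Benjamini-Hochberg over all probe sets), 0 of 48 probe sets were called in QF, where 0.455% of all probe sets were. The counts were 0 of 48 in TA (background 0.407%) and 0 of 48 for the average (background 1.09%). At an unadjusted p under 0.05, 9 of 48 were higher in QF (background 3.73%), 4 in TA (background 2.65%) and 11 for the average (background 4.38%). None of the 48 was lower at that level, where the backgrounds were 3.04% in QF, 2.17% in TA and 3.24% for the average. The QF count of 9 was 5 without the control QF array 1 and 14 without both QF arrays numbered 2. The TA count of 4 was 2 without either of the control TA arrays 1 and 2 or either of the Dysf_null TA arrays 2 and 3. The shares over all probe sets in these refits are not given here, so the counts show only how far they move with the arrays.

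The QF arrays numbered 2 stood apart in both genotypes. Their median correlations with the other arrays were 0.876 and 0.866, against 0.926 to 0.959 for the other 10 arrays, and their deposited medians were 107.1 and 106.1, against 72.8 to 84.3. Arrays with the same number deviated together within each muscle, and a fit with the number as a block called 2 of 48 probe sets in QF (background 2.64%), 0 in TA (background 1.54%) and 3 for the average (background 4.59%). These were Mki67 and Cks1b in QF, and Mki67, Cks1b and Mcm5 for the average, all higher in Dysf_null.

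**Figure D1:**
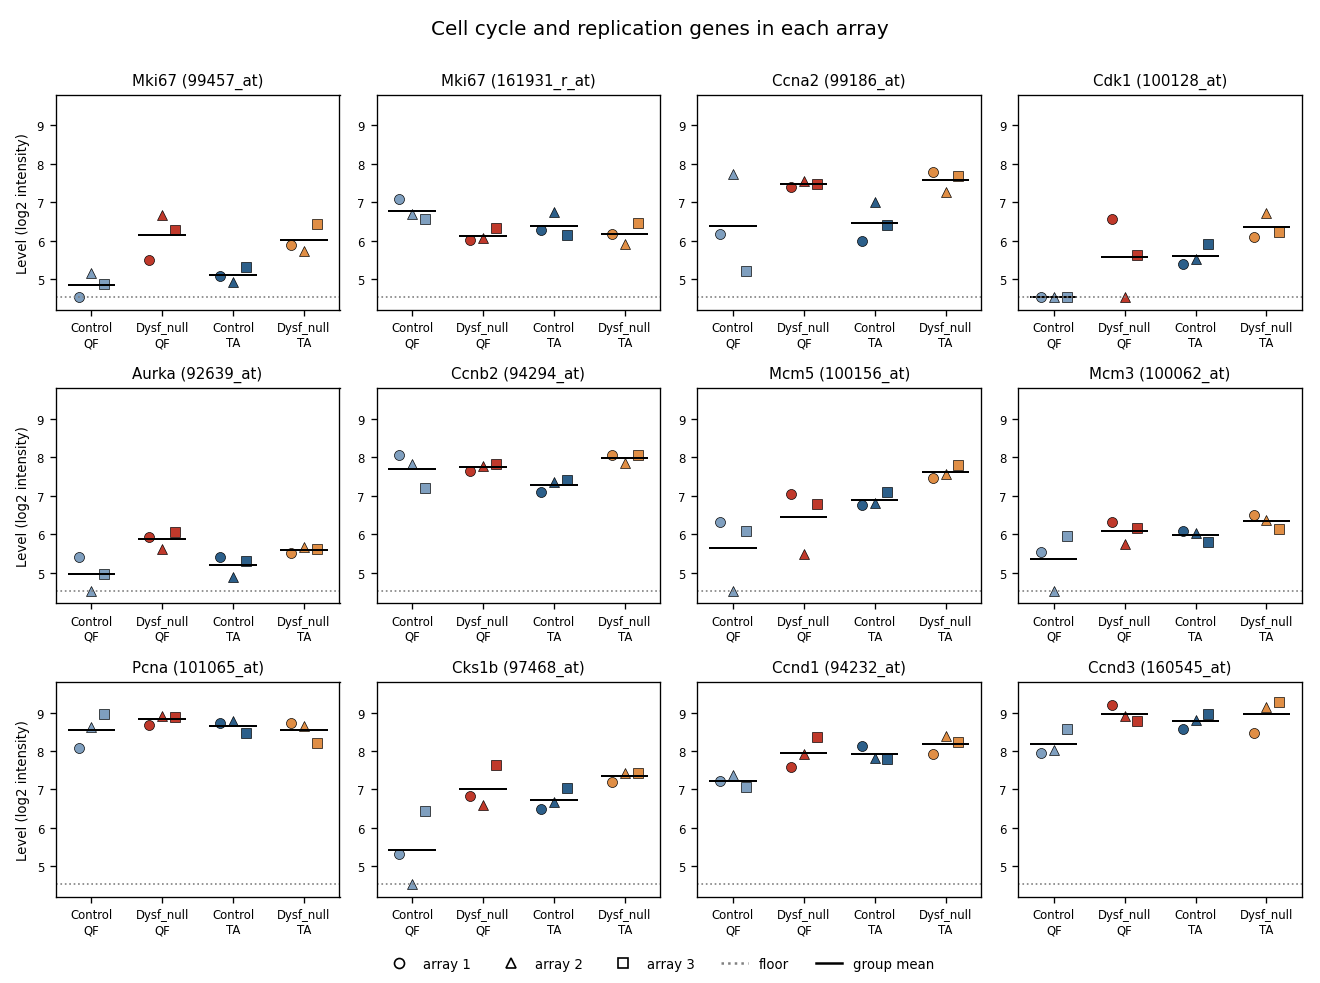
Levels (log2 intensity after quantile normalization, y axis) of 12 probe sets in each array, by genotype and muscle (x axis), with the marker shape giving the array number, a line at the mean of each group of 3, and a dotted line at the floor of 4.53. Mki67 (99457_at), Aurka and Cks1b were higher on each Dysf_null array than on any control array of the same muscle, while the other Mki67 probe set was lower in QF.

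Mitosis genes, the largest class with 16 of the 48 probe sets, made up 6 of the 11 higher at an unadjusted p under 0.05 for the average (background 4.38%). Mki67, the marker of cycling cells, had QF levels (99457_at, log2 intensity) of 4.53, which is the floor, 5.15 and 4.86 in controls and 5.49, 6.67 and 6.29 in Dysf_null mice. Its TA levels were 5.08, 4.93 and 5.32 in controls and 5.89, 5.72 and 6.43 in Dysf_null. The groups did not overlap in either muscle. The difference was 1.30 ± 0.35 in QF, 0.91 ± 0.35 in TA and 1.11 ± 0.25 on average, a 2.15-fold difference with an adjusted p of 0.0603. With the replicate block the average had an adjusted p of 0.00701 and the QF difference one of 0.0256.

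The other Mki67 probe set (161931_r_at) went the other way. It read 7.09, 6.69 and 6.56 in control QF and 6.01, 6.06 and 6.32 in Dysf_null QF, a difference of -0.65 ± 0.31 with no overlap. Mki67 in TA read 6.28, 6.75 and 6.14 in controls and 6.16, 5.91 and 6.45 in Dysf_null, which overlapped, with a difference of -0.22 ± 0.31. Both probe sets carried the same symbol in the annotation, so the Mki67 result rests on the probe set chosen. Probe sets of a gene also differed in sign for Mcm5 in both muscles and for Lig1, Tk1, Ccnd1, Plk1 and Rrm1 in QF.

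Ccna2, the cyclin of S phase and early mitosis, had a similar difference in each muscle, 1.10 ± 0.50 in QF and 1.11 ± 0.50 in TA. Its QF levels were 6.17, 7.73 and 5.20 in controls and 7.39, 7.56 and 7.46 in Dysf_null, and the control QF array 2 lay above all Dysf_null arrays. In TA they were 5.98, 7.0 and 6.41 in controls and 7.77, 7.27 and 7.69 in Dysf_null, with no overlap. The average difference was 1.11 ± 0.36 (adjusted p 0.256). The differences in QF (adjusted p 0.733) and in TA did not pass the test either. Without both QF arrays numbered 2, a choice made after seeing the data, the average was 1.48 and past the threshold. That fit leaves out the control array that lay above the Dysf_null arrays, so a larger difference followed from the choice.

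Cdk1, the kinase that drives entry into mitosis, was at the floor on all control QF arrays and read 6.56, the floor and 5.62 in Dysf_null QF, a fitted difference of 1.05 that is no bound, since 1 Dysf_null array was also at the floor. Cdk1 in TA read 5.39, 5.53 and 5.90 in controls and 6.08, 6.72 and 6.23 in Dysf_null, a difference of 0.74 ± 0.43 with no overlap. Aurka, the spindle pole kinase, read 5.40, the floor and 4.97 in control QF and 5.93, 5.61 and 6.06 in Dysf_null QF, with a difference of 0.90 ± 0.30. The TA levels of Aurka were 5.40, 4.88 and 5.31 in controls and 5.50, 5.66 and 5.62 in Dysf_null, a difference of 0.40 ± 0.30. Its groups overlapped in neither muscle, and its average difference of 0.65 ± 0.21 did not pass the test (adjusted p 0.268).

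Ccnb2, a B-type cyclin, differed in TA and little in QF. It read 7.09, 7.36 and 7.41 in control TA and 8.05, 7.86 and 8.07 in Dysf_null TA, with no overlap and a difference of 0.70 ± 0.23. In QF it read 8.05, 7.83 and 7.20 in controls and 7.64, 7.79 and 7.82 in Dysf_null, a difference of 0.06 ± 0.23. The difference between muscles in this genotype difference was 0.65 ± 0.33 and did not pass the test (adjusted p 1). Birc5 (survivin, of the chromosomal passenger complex) had the opposite order, with 1.00 ± 0.39 in QF and 0.28 ± 0.39 in TA.

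Aurkb, the kinase of the chromosomal passenger complex, was close to the floor in control QF at 4.78, the floor and the floor, and read 5.88, the floor and 6.52 in Dysf_null QF. Aurkb in TA read 6.32, 4.76 and 5.02 in controls and 4.75, 5.72 and 4.90 in Dysf_null. Its differences were 1.04 ± 0.51 in QF and -0.25 ± 0.51 in TA, and its groups overlapped in both muscles. Mad2l1, of the spindle checkpoint, read 5.82 to 6.27 in control QF and 6.56 to 6.87 in Dysf_null QF without overlap, a difference of 0.64 ± 0.31, against -0.12 ± 0.31 in TA.

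The remaining mitosis genes were low or differed little. Cdc20, an activator of the anaphase-promoting complex, had differences of 0.12 ± 0.31 in QF and 0.41 ± 0.31 in TA. Top2a, the topoisomerase that untangles sister chromatids, was at the floor on all 6 control arrays and above it on 1 Dysf_null QF array and 2 Dysf_null TA arrays. The 3 Plk1 probe sets had differences from -0.02 to 0.29 in QF and from 0.01 to 0.35 in TA. The mitotic kinesin Kif20a was mostly at the floor by 1 probe set (160501_at). By the other (161856_f_at) it read the floor, 6.06 and the floor in control QF and 6.01, 5.72 and 5.98 in Dysf_null QF, and was above the floor on 1 array of each TA group.

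Of the replication core, 1 of 12 probe sets was higher at an unadjusted p under 0.05 for the average (background 4.38%), that of Mcm5. Mcm5 (100156_at), a helicase subunit, read 6.32, the floor and 6.09 in control QF and 7.04, 5.47 and 6.79 in Dysf_null QF, a difference of 0.79 ± 0.49. Mcm5 in TA read 6.76, 6.82 and 7.10 in controls and 7.46, 7.56 and 7.80 in Dysf_null, a difference of 0.71 ± 0.49. The array numbered 2 was the lowest of both QF groups, so the QF groups overlapped, and the TA groups did not. The average difference was 0.75 ± 0.35 (adjusted p 0.645), or 0.0197 as the adjusted p with the replicate block. The other Mcm5 probe set (162102_r_at), which was partly at the floor, had differences of -0.61 ± 0.61 and -0.30 ± 0.61.

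Mcm3, another helicase subunit, read 5.54, the floor and 5.96 in control QF and 6.33, 5.73 and 6.16 in Dysf_null QF by 1 probe set (100062_at), a difference of 0.73 ± 0.37. In TA that probe set read 6.07, 6.03 and 5.80 in controls and 6.50, 6.36 and 6.13 in Dysf_null, a difference of 0.36 ± 0.37 with no overlap. The other Mcm3 probe set (160496_s_at) had QF levels of 6.56, 6.74 and 6.97 in controls and 6.74, 6.96 and 7.11 in Dysf_null. Mcm3 in TA read 6.95, 7.08 and 7.24 in controls and 7.38, 7.12 and 7.28 in Dysf_null. Its differences were 0.18 ± 0.24 in QF and 0.17 ± 0.24 in TA, with overlap in both muscles.

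Mcm4 rested on a single low control array. It read the floor, 6.89 and 6.60 in control QF and 6.30, 7.20 and 6.85 in Dysf_null QF, a difference of 0.78 ± 0.52. Mcm4 in TA read 6.80, 6.55 and 6.79 in controls and 6.33, 6.96 and 6.77 in Dysf_null, a difference of -0.03 ± 0.52. Mcm7 had differences of 0.53 ± 0.35 and 0.13 ± 0.35, Mcm2 of 0.01 ± 0.57 and 0.36 ± 0.57, and Mcm6 was within 0.04 of 0 in both muscles and mostly at the floor.

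Pcna, the replication clamp, had small differences of opposite sign. It read 8.08, 8.62 and 8.96 in control QF and 8.68, 8.90 and 8.89 in Dysf_null QF, a difference of 0.27 ± 0.22. Pcna in TA read 8.74, 8.77 and 8.46 in controls and 8.73, 8.66 and 8.21 in Dysf_null, a difference of -0.13 ± 0.22. The Pcna groups overlapped in both muscles.

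The subunits of ribonucleotide reductase had differences with wide errors. Rrm1 (100612_at) read 5.02, 5.81 and 6.60 in control QF and 6.44, 5.32 and 7.22 in Dysf_null QF, and 5.67, 4.97 and 6.84 in control TA against 6.22, 7.15 and 7.02 in Dysf_null TA. Its differences were 0.52 ± 0.59 and 0.97 ± 0.59, with overlap in both muscles, and its other probe set had -0.00 ± 0.47 and 0.08 ± 0.47. Rrm2 read 4.73, 7.27 and 5.52 in control QF and 6.23, 7.05 and 5.98 in Dysf_null QF, and 5.85, 5.72 and 5.63 in control TA against 6.82, 6.10 and 5.96 in Dysf_null TA. The differences of Rrm2 were 0.58 ± 0.55 and 0.56 ± 0.55, and its groups overlapped in QF and not in TA.

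Among the other replication genes, Lig1, the ligase that joins lagging strand fragments, stood highest. By 1 probe set (92551_at) it read 5.76, 6.38 and 6.16 in control QF and 7.65, 7.27 and 6.77 in Dysf_null QF, a difference of 1.14 ± 0.49 with no overlap. In TA that probe set read 6.75, 6.48 and 4.60 in controls and 6.56, 6.79 and 6.84 in Dysf_null, a difference of 0.79 ± 0.49. Its average difference was 0.96 ± 0.35 (adjusted p 0.372). The other Lig1 probe set (162004_i_at) read 5.08, 6.33 and 5.72 in control QF and 6.30, the floor and 5.73 in Dysf_null QF, and 6.14, 5.65 and 5.93 in control TA against 6.45, 6.07 and 6.24 in Dysf_null TA. It had differences of -0.19 ± 0.45 and 0.34 ± 0.45 and overlapped in both muscles.

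Pola1, the catalytic subunit of the priming polymerase, read 4.64, 5.25 and 5.41 in control QF and 5.80, 5.15 and 6.08 in Dysf_null QF, a difference of 0.58 ± 0.33. Pola1 in TA read 5.46, 5.16 and 5.70 in controls and 5.93, 5.72 and 5.65 in Dysf_null, a difference of 0.33 ± 0.33. Fen1, the flap nuclease, read 5.45, 5.38 and 5.90 in control QF, 5.98, 5.68 and 6.17 in Dysf_null QF, 6.33, 6.14 and 6.01 in control TA and 5.52, 5.86 and 6.18 in Dysf_null TA. The groups of both genes overlapped in each muscle, and the Fen1 differences were 0.36 ± 0.31 in QF and -0.31 ± 0.31 in TA. Cdc45, which travels with the Mcm helicase, had differences of 0.31 ± 0.65 and -0.38 ± 0.65. Prim1, the primase subunit, was at the floor on all 6 control arrays and above it on 2 Dysf_null QF arrays and 1 Dysf_null TA array, at 4.84, 4.85 and 4.65.

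Tk1, the thymidine kinase of the salvage pathway, had differences of 0.06 ± 0.49 in QF and 0.05 ± 0.49 in TA by 1 probe set (96081_at). By the other (161150_at) it read 8.45, 6.49 and 6.44 in control QF and 7.65, 5.41 and 4.67 in Dysf_null QF, and 6.77, 7.27 and the floor in control TA against 7.19, 7.25 and 6.10 in Dysf_null TA. That probe set had the widest spread of the 48, with differences of -1.22 ± 0.85 and 0.66 ± 0.85 and overlap in both muscles.

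The cyclin D genes differed in QF for 2 of 3 members. Ccnd1 (94232_at) read 7.21, 7.36 and 7.07 in control QF and 7.59, 7.93 and 8.36 in Dysf_null QF, a difference of 0.75 ± 0.23, or 1.68-fold. Ccnd3, the D-type cyclin known from differentiating muscle, read 7.95, 8.02 and 8.57 in control QF and 9.19, 8.92 and 8.79 in Dysf_null QF, a difference of 0.78 ± 0.24, or 1.72-fold. Neither overlapped, and neither passed the test (adjusted p 0.316 and 0.302).

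In TA the control levels of both were higher and the differences smaller. Ccnd1 read 8.13, 7.81 and 7.79 in control TA and 7.93, 8.40 and 8.25 in Dysf_null TA, a difference of 0.28 ± 0.23. Ccnd3 read 8.56, 8.80 and 8.96 in controls and 8.46, 9.15 and 9.27 in Dysf_null, a difference of 0.18 ± 0.24. Both genes overlapped in TA. The TA difference minus the QF difference was -0.46 ± 0.33 for Ccnd1 and -0.60 ± 0.34 for Ccnd3, which did not pass the test (adjusted p 1 for each).

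The other Ccnd1 probe set (94231_at) did not show the QF difference. It read 7.0, 5.60 and 4.62 in control QF and 5.09, 6.23 and 5.85 in Dysf_null QF, a difference of -0.02 ± 0.51. Ccnd1 in TA read 5.70, 6.14 and 5.48 in controls and 6.07, 6.12 and 6.0 in Dysf_null, a difference of 0.29 ± 0.51. Ccnd2 read 5.68, 6.51 and 5.76 in control QF and 5.46, 6.94 and 6.13 in Dysf_null QF, a difference of 0.20 ± 0.45 that was -0.19 without the Dysf_null QF array 2. In TA Ccnd2 read the floor, 5.64 and 4.64 in controls and 4.83, 5.58 and 5.55 in Dysf_null, a difference of 0.39 ± 0.45 with overlap.

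Of the G1 to S control genes, Cks1b, a small subunit bound by cyclin-dependent kinases, had the largest QF difference of all 48 probe sets. It read 5.32, the floor and 6.43 in control QF and 6.81, 6.60 and 7.63 in Dysf_null QF, a difference of 1.59 ± 0.44, or 3.01-fold. Cks1b in TA read 6.48, 6.67 and 7.02 in controls and 7.20, 7.42 and 7.42 in Dysf_null, a difference of 0.62 ± 0.44. The groups overlapped in neither muscle. The adjusted p was 0.209 in QF and 0.151 for the average of 1.10 ± 0.31, and with the replicate block 0.0101 and 0.00691.

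E2f1, the activator of replication genes, read 4.67, the floor and 5.14 in control QF and 6.15, the floor and 6.10 in Dysf_null QF (161427_f_at), a difference of 0.81 ± 0.43. E2f1 in TA read 4.89, 6.01 and 5.47 in controls and 5.69, 5.88 and 5.78 in Dysf_null, a difference of 0.32 ± 0.43. Its groups overlapped in both muscles, and its other probe set was above the floor on 2 arrays, both Dysf_null TA. Cdk4 (160538_at), the partner of D-type cyclins, read 8.84, 8.51 and 8.57 in control QF and 8.86, 8.73 and 8.88 in Dysf_null QF, and 8.98, 8.71 and 9.09 in control TA against 9.10, 8.83 and 9.38 in Dysf_null TA. Its difference was 0.18 ± 0.17 in each muscle, with overlap.

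Cdk2, the partner of cyclins E and A, read 6.16, 7.96 and 6.21 in control QF and 7.29, 7.50 and 6.48 in Dysf_null QF (94412_at), and 7.02, 6.04 and 6.59 in control TA against 6.86, 6.39 and 6.82 in Dysf_null TA. Ccne1, a cyclin E, read 7.71, 5.77 and 7.53 in control QF and 7.89, 5.82 and 6.50 in Dysf_null QF, and 7.46, 7.27 and 7.83 in control TA against 7.66, 7.26 and 7.67 in Dysf_null TA. The differences were 0.31 ± 0.47 and 0.14 ± 0.47 for Cdk2 and -0.27 ± 0.54 and 0.01 ± 0.54 for Ccne1. Both overlapped in each muscle, and the QF arrays numbered 2 were the lowest of each QF group for Ccne1 and the highest for Cdk2.

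Both chromatin genes were higher in Dysf_null TA without overlap (background 6.92%), and neither passed the test. Hmgb2, a chromatin protein abundant in dividing cells, read 5.25, 5.03 and 5.13 in control TA and 6.50, 5.95 and 5.35 in Dysf_null TA, a difference of 0.80 ± 0.33. In QF it read 5.15, 5.30 and 5.68 in controls and 5.81, 5.22 and 5.62 in Dysf_null, a difference of 0.18 ± 0.33 with overlap. Ezh2, the methyltransferase of Polycomb complex PRC2, read 6.14, 6.34 and 6.26 in control TA and 6.57, 6.72 and 6.51 in Dysf_null TA, a difference of 0.36 ± 0.28. In QF Ezh2 read 6.21, 6.02 and 6.52 in controls and 6.46, 6.36 and 6.65 in Dysf_null, a difference of 0.24 ± 0.28 with overlap.

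**Figure D2:**
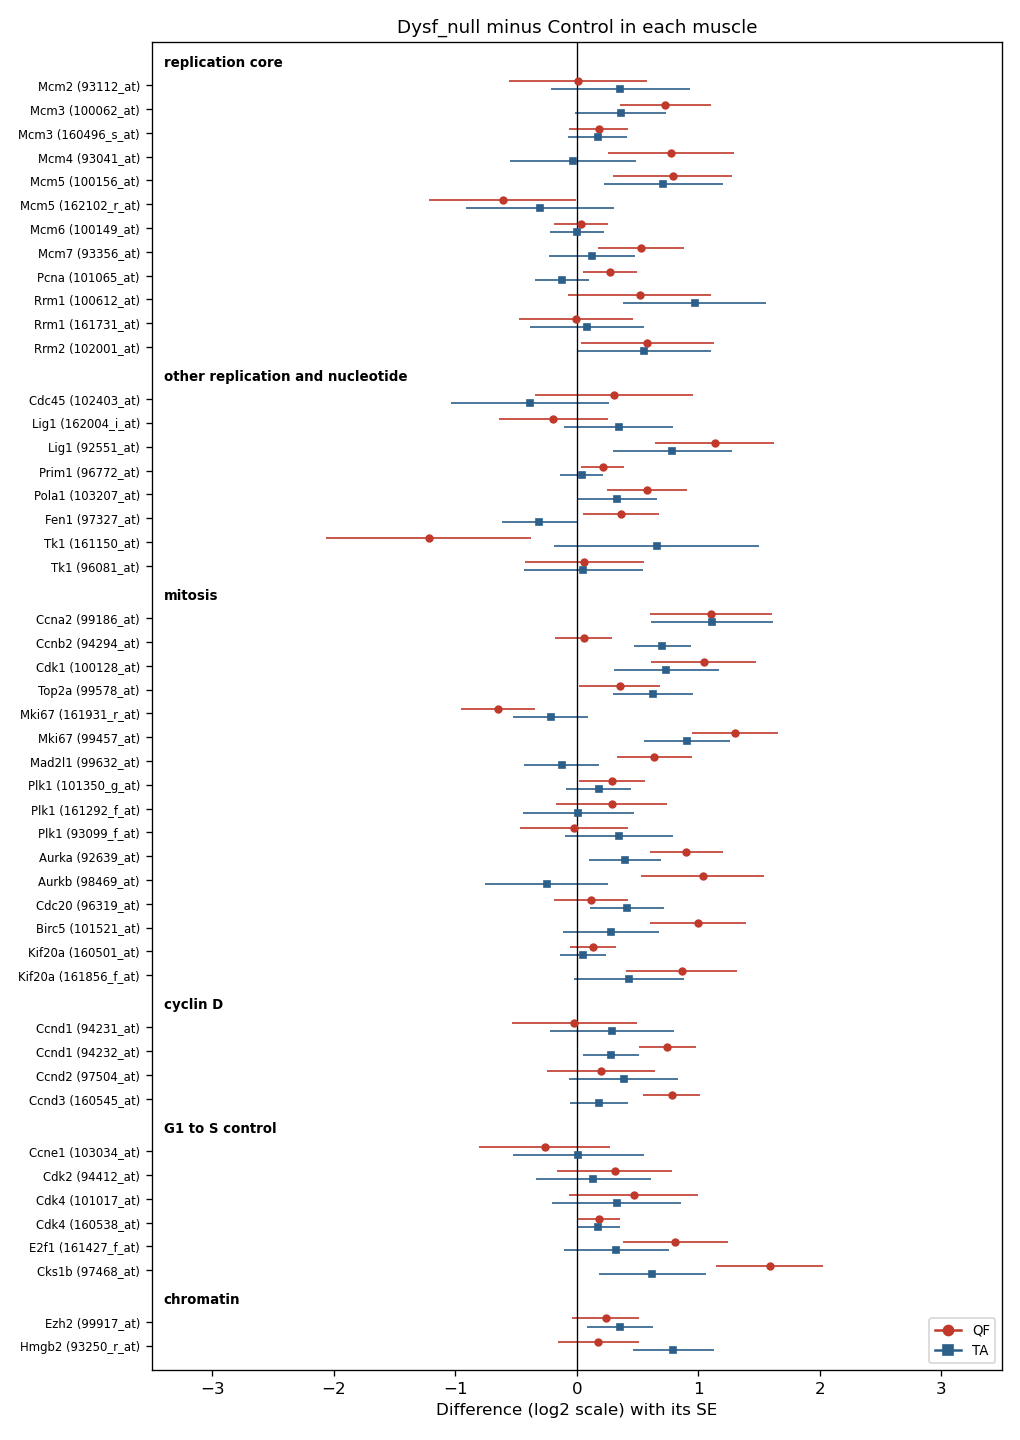
Differences between genotypes (Dysf_null minus Control, log2 scale, x axis) of the 48 tested probe sets (y axis, by class), in QF (red circles) and TA (blue squares), with bars of 1 SE. Of the 48 points, 40 in QF and 39 in TA lay to the right of 0.

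Counted over all tested probe sets of the listed genes, 7 of 48 were higher in Dysf_null QF without overlap (background 4.08%) and 1 was lower, the Mki67 probe set named above (background 3.45%). In TA 11 of 48 were higher without overlap (background 6.92%) and 0 were lower (background 6.87%). In both muscles together 3 were higher without overlap, those of Mki67, Aurka and Cks1b (background 1.29%). None of the 12 replication core or 4 cyclin D probe sets was among these 3. At a background of 1.29%, a count of 0 in classes this small does not set them apart.

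The classes were compared by their medians, with the probe set of the highest mean level for each gene. By this rule Mki67 entered by 161931_r_at, which was lower in Dysf_null, and Mcm3 by 160496_s_at, which had the smaller differences. In QF the median difference was 0.52 for the replication core, 0.34 for other replication genes, 0.75 for mitosis, 0.75 for cyclin D, 0.31 for G1 to S control and 0.21 for chromatin genes. In TA it was 0.17, 0.18, 0.40, 0.28, 0.18 and 0.58 in the same order. The difference between classes was not tested, and the order of mitosis and replication core turned with the processing. In QF it was 0.28 for mitosis and 0.32 for the core with a floor at the 40th percentile, 0.71 and 0.79 with array weights, and 0.72 and 0.74 without both QF arrays numbered 2. In TA it was 0.14 and 0.21 with the floor at the 40th percentile.

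With a floor at the 10th percentile the mitosis median in QF was 1.10. The replication core median in QF was 0.08 without the control QF array 1. For cyclin D in QF the median was 0.36 when the probe sets of a gene were averaged. The median of the other replication genes in TA was -0.07 without the control TA array 3 and also with a floor at the 10th percentile.

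For each array, the median deviation of the class genes from their mean over the 12 arrays was taken. For the replication core it was -0.56, -0.02 and -0.04 in control QF and 0.16, 0.17 and 0.14 in Dysf_null QF, so that the spread among controls came from array 1. For mitosis genes it was -0.33, 0.16 and -0.55 in control QF and 0.32, 0.09 and 0.32 in Dysf_null QF, which overlapped through the arrays numbered 2. In TA the replication core had -0.15, -0.15 and 0.23 in controls and 0.09, 0.19 and 0.22 in Dysf_null, with overlap. Mitosis genes had -0.11, -0.32 and -0.15 in control TA and 0.10, 0.28 and 0.17 in Dysf_null TA, without overlap. Cyclin D genes had -0.61, -0.46 and -0.15 in control QF and -0.14, 0.20 and 0.53 in Dysf_null QF, and overlapped in TA. The SD between arrays of a group was 0.19 for the replication core, 0.21 for mitosis and 0.29 for cyclin D.

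**Figure D3:**
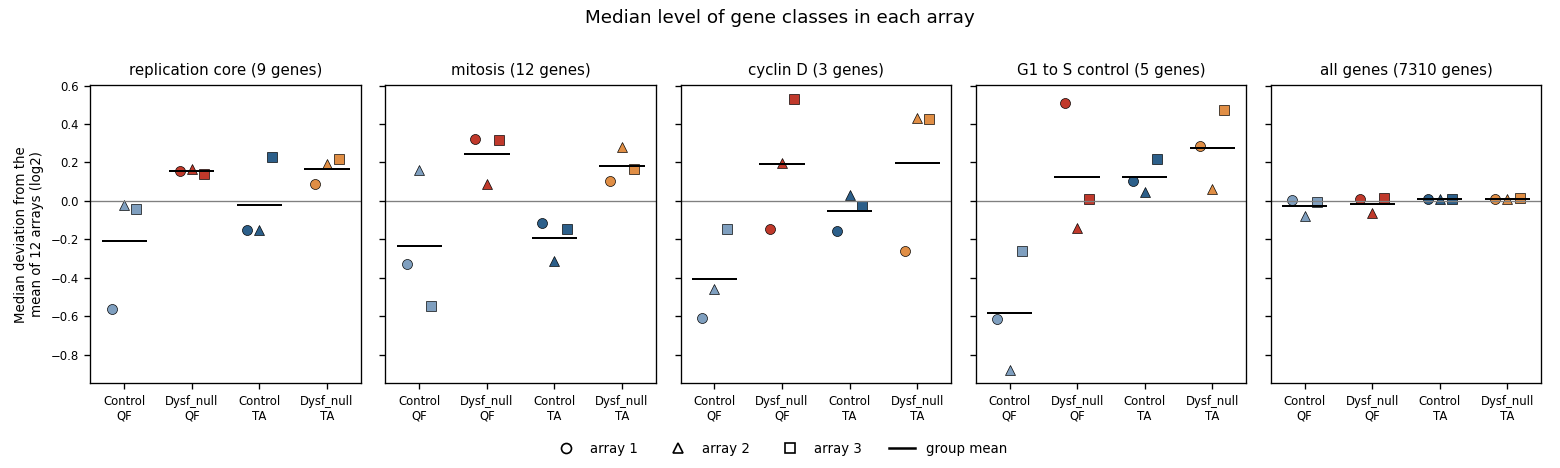
Median deviation of the genes of a class from their own mean over 12 arrays (log2 scale, y axis) in each array, by genotype and muscle (x axis), with the marker shape giving the array number and a line at the group mean. The 3 Dysf_null TA arrays lay above the 3 control TA arrays for mitosis genes (0.10 to 0.28 against -0.32 to -0.11), the replication core overlapped there, and the medians of all genes stayed between -0.08 and 0.02.

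Between muscles, the genes had no common direction. The count with a level higher in TA than in QF was 28 of 48 probe sets in controls (background 49.9%) and 26 of 48 in Dysf_null (background 52.2%). None of the 48 was called in controls (background 0.736%) or in Dysf_null mice (background 0.3%). At an unadjusted p under 0.05, 6 were higher in TA and 2 lower in controls (backgrounds 5.7% and 4.16%), and 2 were higher and 1 lower in Dysf_null (backgrounds 3.07% and 2.65%). Without overlap, 7 were higher in TA and 1 lower in controls (backgrounds 8.16% and 5.6%), and 4 were higher and 1 lower in Dysf_null (backgrounds 5.71% and 4.51%).

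Tk1 and Mcm5, each by 1 of its probe sets, were the genes higher in TA at an unadjusted p under 0.05 in both genotypes. Tk1 (96081_at) read 4.82, 5.52 and 6.77 in control QF and 6.96, 7.37 and 7.50 in control TA, a TA minus QF difference of 1.58 ± 0.49. In Dysf_null mice it read 6.22, 4.86 and 6.20 in QF and 7.44, 7.49 and 7.06 in TA, a difference of 1.57 ± 0.49. The muscles did not overlap in either genotype, and neither difference passed the test (adjusted p 0.248 and 0.519). For Mcm5 (100156_at), with the levels given above, TA minus QF was 1.2 ± 0.49 in controls and 1.17 ± 0.49 in Dysf_null. The other probe sets of both genes did not show this. For Tk1 (161150_at) TA minus QF was -0.94 ± 0.85 in controls and 0.94 ± 0.85 in Dysf_null. For the other Mcm5 probe set (162102_r_at) it was -0.49 ± 0.61 and -0.18 ± 0.61.

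Ccnd2 and Plk1 went toward QF. Ccnd2 had TA minus QF differences of -1.05 ± 0.45 in controls, without overlap, and -0.86 ± 0.45 in Dysf_null, with overlap. Plk1 by 1 of 3 probe sets (161292_f_at) read 6.01, 7.06 and 7.54 in control QF against 5.98, 5.50 and 6.07 in control TA, a difference of -1.02 ± 0.46. In Dysf_null mice that probe set read 6.26, 7.66 and 7.55 in QF against 6.21, 5.58 and 5.81 in TA, a difference of -1.29 ± 0.46 with no overlap. The other Plk1 probe sets had TA minus QF differences from -0.33 to 0.16.

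Some genes had a larger TA minus QF difference in controls than in Dysf_null mice, without passing the test. Ccnd1 (94232_at) had 0.70 ± 0.23 in controls and 0.23 ± 0.23 in Dysf_null, Ccnd3 had 0.59 ± 0.24 and -0.00 ± 0.24, and Cks1b had 1.30 ± 0.44 and 0.33 ± 0.44. Cdk1 was at least 1.08 higher in control TA than in control QF, and its difference was 0.77 ± 0.43 in Dysf_null. For the interaction, which is how far the genotype effect in TA exceeded that in QF, 17 of 48 probe sets were above 0 (background 49.5%), 0 of 48 were called (background 0.0678%), and 0 of 48 had an unadjusted p under 0.05 in either direction (backgrounds 1.52% and 1.53%). The interaction shares its arrays with the comparisons above.

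**Figure D4:**
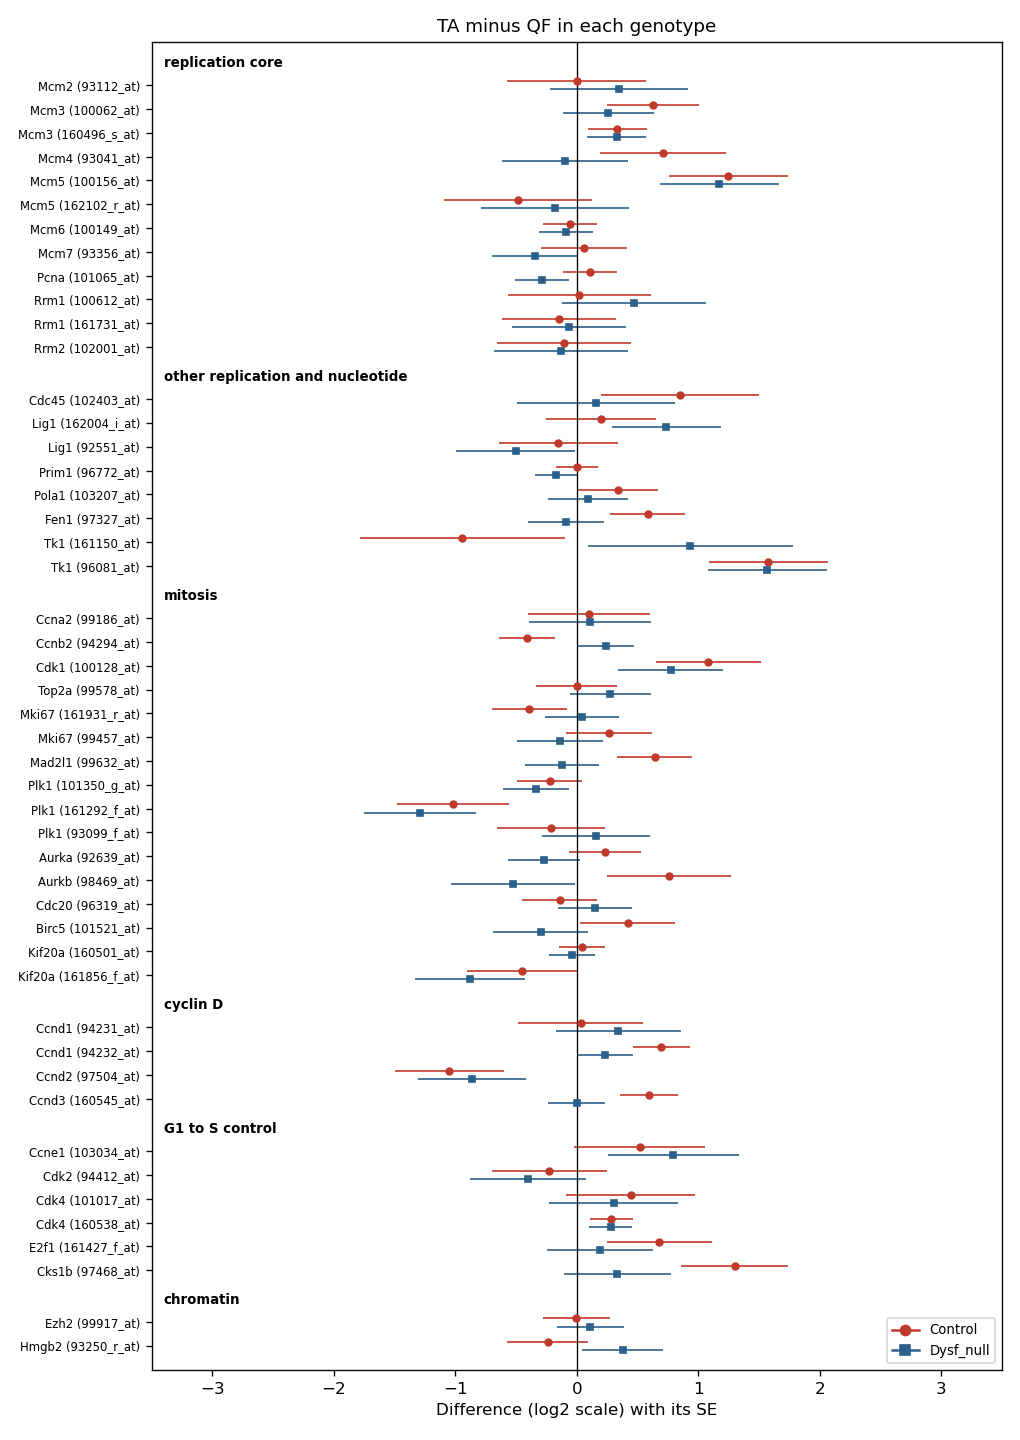
Differences between muscles (TA minus QF, log2 scale, x axis) of the 48 tested probe sets (y axis, by class) in Control (red circles) and Dysf_null mice (blue squares), with bars of 1 SE. Tk1 (96081_at) and Mcm5 (100156_at) lay to the right of 1 and Plk1 (161292_f_at) to the left of -1 in both genotypes.

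Other genes of the pathway were taken from 3 lists of regulators and inhibitors (26 genes tested), other replication genes (33) and other mitosis genes (28), in all 106 probe sets. At an adjusted p under 0.05, 1 of 106 fell in Dysf_null QF (background 0.455%), 0 changed in TA (background 0.407%), and 2 rose and 1 fell for the average (background 1.09%). The median differences in QF, TA and on average were 0.09, -0.03 and 0.02 for regulators, 0.13, 0.10 and 0.06 for other replication genes, and 0.38, 0.29 and 0.28 for other mitosis genes. With the replicate block, 4 of 106 were called in QF, 1 in TA and 9 for the average (backgrounds 2.64%, 1.54% and 4.59%).

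The largest difference was that of Cdkn1a, which encodes p21, an inhibitor of cyclin-dependent kinases. It read 8.23, 8.04 and 8.14 in control QF and 5.42, 7.0 and 6.29 in Dysf_null QF (94881_at), and fell by 1.90 on the log2 scale ± 0.36 (adjusted p 0.0377). Cdkn1a in TA read 7.20, 6.87 and 7.37 in controls and 6.69, 6.14 and 6.29 in Dysf_null, a difference of -0.77 ± 0.36 (adjusted p 1). The groups did not overlap in either muscle, and the average fell by 1.34 ± 0.25 (adjusted p 0.0219). The QF call held in 1 of 12 fits with an array left out and the average in 7 of 12, and the other Cdkn1a probe set (98067_at) had differences of -0.12 ± 0.25 and -0.05 ± 0.25. It was 98067_at, with the higher mean level, that entered the regulator medians.

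Stmn1, stathmin, which takes microtubules apart and is regulated in mitosis, rose by 0.99 ± 0.19 on average (adjusted p 0.021). It read 6.57, 6.24 and 6.80 in control QF and 8.07, 7.36 and 8.06 in Dysf_null QF, a difference of 1.29 ± 0.26 (adjusted p 0.0587, and 0.00817 with the replicate block). Stmn1 in TA read 7.37, 7.18 and 7.19 in controls and 7.65, 7.99 and 8.14 in Dysf_null, a difference of 0.68 ± 0.26. No groups overlapped, and the call held in 5 of 12 fits with an array left out.

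Btg2, an antiproliferative gene induced by p53, rose by 0.60 ± 0.13 on average (adjusted p 0.0498). It read 8.68, 8.71 and 8.91 in control TA and 9.50, 9.65 and 9.76 in Dysf_null TA, a difference of 0.87 ± 0.19 (adjusted p 0.094), and this TA difference passed the test with the replicate block (adjusted p 0.00168). In QF it read 8.96, 9.46 and 8.88 in controls and 9.19, 9.75 and 9.36 in Dysf_null, a difference of 0.33 ± 0.19 with overlap. The average call held in 2 of 12 fits with an array left out.

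Other mitosis genes with small p-values were higher in Dysf_null mice without passing the test. Pttg1, securin, read 7.01, 6.84 and 7.22 in control QF and 8.33, 8.39 and 7.80 in Dysf_null QF, and 7.51, 6.68 and 7.88 in control TA against 7.94, 7.96 and 8.36 in Dysf_null TA. Its average difference was 0.94 ± 0.21 (adjusted p 0.0589), and that of Smc2, a condensin subunit, was 0.94 ± 0.23 (adjusted p 0.0816). Smc2 was at the floor on 2 of 3 control QF arrays, at 4.57 on the other, and at 5.92, 5.11 and 6.31 in Dysf_null QF. The kinesin Kif23 had differences of 1.08 ± 0.30 in QF and 0.60 ± 0.30 in TA. With the replicate block Pttg1 and Smc2 passed the test for the average (adjusted p 0.0127 and 0.0312), and Pttg1 also in QF (adjusted p 0.0374).

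Among the other replication genes, Pold1, the catalytic subunit of DNA polymerase delta, had a difference of 1.14 ± 0.33 in QF by 1 probe set (103057_at) and -0.29 ± 0.33 by the other. Uhrf1, which keeps DNA methylation through replication, had 0.76 ± 0.45 in QF and 1.07 ± 0.45 in TA, and Orc2, of the origin recognition complex, had 0.91 ± 0.55 and 0.27 ± 0.55. The floor held Uhrf1 on the control QF array 3 and the control TA arrays 1 and 2, and Orc2 on the control QF array 1. The licensing inhibitor Gmnn had 0.45 ± 0.36 and -0.61 ± 0.36, and Cdt1, its target, had an average difference of 0.29 ± 0.18. Ung, a uracil DNA glycosylase, had 0.39 ± 0.22 in TA (162227_r_at). In QF this Ung probe set read 8.41, 8.76 and 7.93 in controls and 8.23, 7.93 and 8.31 in Dysf_null, with overlap and no such rise. Of the regulators, Gadd45b (161666_f_at), a stress-induced gene, had differences of -0.94 ± 0.25 in QF, -0.39 ± 0.25 in TA and -0.66 ± 0.18 on average. With the replicate block its adjusted p was 0.0156 in QF, against 0.2 without it, and 0.0102 for the average, against 0.135. Its other probe set (102779_at) had 0.37 ± 0.37 in QF and -0.36 ± 0.37 in TA. Ccng2 had differences of -0.67 ± 0.29 and -0.27 ± 0.29, and Cdkn1b (161010_r_at), which encodes p27, had 0.08 ± 0.31 and -0.67 ± 0.31. This Cdkn1b probe set was at the floor on the Dysf_null TA arrays 1 and 3, which limits its TA difference. Cdkn1b (100278_at), Ung (102792_at) and Cdt1 (161787_f_at) each had another tested probe set, whose differences are not given here.

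Between muscles, 0 of the 106 probe sets were called in controls (background 0.736%) and 1 fell in Dysf_null (background 0.3%), that of Gadd45a, a stress-induced growth arrest gene. It read 9.28, 9.56 and 9.38 in Dysf_null QF and 8.61, 8.59 and 8.78 in Dysf_null TA, and was lower in TA by a difference of -0.75 ± 0.14 (adjusted p 0.0487). In controls it read 9.14, 9.25 and 9.33 in QF and 8.63, 8.83 and 8.58 in TA, a difference of -0.56 ± 0.14 (adjusted p 0.123). The muscles overlapped in neither genotype, and the call held in 0 of 12 fits with an array left out. For the interaction 0 of 106 were called (background 0.0678%).

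**Figure D5:**
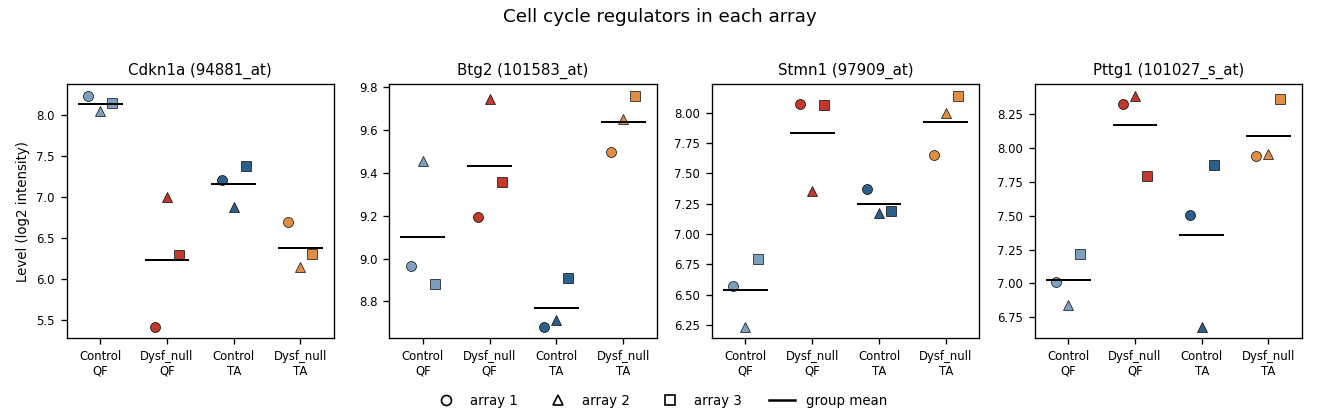
Levels (log2 intensity after quantile normalization, y axis, with its own range in each panel) of Cdkn1a, Btg2, Stmn1 and Pttg1 in each array, by genotype and muscle (x axis), with the marker shape giving the array number and a line at the mean of each group of 3. Cdkn1a was lower and Stmn1 higher on each Dysf_null array than on any control array of the same muscle.

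The RNA came from whole muscle, in which fewer cells of a type and less RNA per cell cannot be told apart. Marker lists of the cell types that muscle could hold were summed on the intensity scale for each array, and their part in the results above was not tested. The markers of highest level weigh most in such a sum, so calls of single markers are given beside it. The muscle fibre sum (8 of 8 markers tested) was 120900 to 126100 in Dysf_null QF against 131200 to 133900 in control QF, and 112300 to 122100 against 121900 to 129600 in TA, where the groups overlapped. The satellite cell and myoblast sum (9 of 10) was 1402 to 2103 against 1512 to 2365 in QF and 1433 to 1767 against 1570 to 2075 in TA, with overlap in both. No marker of these lists was at the floor on all arrays of a group. The macrophage sum (8 of 8) was 3355 to 3958 against 2631 to 3175 in QF, without overlap, and 3021 to 3525 against 2591 to 3347 in TA. At an adjusted p under 0.05 no muscle fibre, satellite cell or macrophage marker was called in QF (background 0.455%). In TA (background 0.407%) 1 macrophage marker was called lower and 0 higher, and no muscle fibre or satellite cell marker was called. For the average (background 1.09%) 1 macrophage marker was called higher and 0 lower, and again no muscle fibre or satellite cell marker was called.

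The fibroblast sum (7 of 8 markers tested) was 26030 to 39150 in Dysf_null QF against 16230 to 24130 in control QF, without overlap, and 27860 to 41580 against 20620 to 28240 in TA. The erythroid sum (7 of 9) was 22920 to 29000 against 17170 to 18330 in QF and 25570 to 28370 against 13920 to 17270 in TA, without overlap in either. The neutrophil precursor sum (8 of 8) had opposite orders, at 371.2 to 491.4 against 682.3 to 834.1 in QF and 1088 to 1205 against 360.4 to 541.9 in TA, and Prtn3 was at the floor on all control QF arrays. Calls have backgrounds of 0.455% in QF, 0.407% in TA and 1.09% for the average. Of the 7 fibroblast markers 1 was called higher in QF, 0 in TA and 2 for the average. Of the 7 erythroid markers 0 were called in QF, where their median difference was 0.18, and 2 were called higher in TA and 2 for the average. Of the 8 neutrophil precursor markers, 1 was called lower in QF and 2 higher in TA, and 0 were called for the average.

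The bone and cartilage sum (5 of 7 markers tested) was 571.7 to 832.5 against 509.2 to 853.1 in QF and 1084 to 1325 against 425.8 to 444.8 in TA, where Acan was at the floor on all control arrays. The lymphocyte sum (6 of 8 on the array and summed, 5 tested) was 513 to 753.5 against 282.8 to 565.4 in QF and 448.5 to 507.5 against 439.8 to 483.5 in TA. Its marker Cd3e was at the floor on all arrays of Dysf_null QF and of control TA. The endothelial (7 of 7) and Schwann cell (3 of 5) sums overlapped between genotypes in QF, at 1617 to 2151 against 1578 to 1894 and at 992.2 to 1574 against 839.5 to 1349. In TA they were 1537 to 1675 against 1421 to 1757 and 1018 to 1365 against 881.7 to 978.6, the latter without overlap. Against the same backgrounds, of the 5 bone and cartilage markers 0 were called in QF, and 2 were called higher in TA and 1 for the average. Of the 5 lymphocyte markers tested 1 was called higher in QF, 0 in TA and 0 for the average. No endothelial or Schwann cell marker was called in either muscle or for the average.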

How the data were processed

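Values were read for 12 single-channel arrays (4 groups of 3), grouped and numbered as the labels say. The deposited values are intensity values on a linear scale, with a mean (without the outer 2%) of 200.11 to 200.16 on every array. How the authors summarised probes was not given in the sources used here. After removal of 66 controls, 12422 of 12488 probe sets were quantile normalized, since array medians differed 1.47-fold (limit 1.25), then floored at their 25th percentile (23.025, log2 4.53) and logged. Tests covered 10331 probe sets that exceeded this floor on 3 or more arrays, fitted as group means with limma 3.58.1 in R 4.3.3 (intensity trend, 8 residual degrees of freedom, two-sided, Benjamini-Hochberg adjustment). The fit recovered known differences in simulated data with independent arrays and no such floor. That check does not cover floored values or same-numbered arrays that deviate together. The median SE of a genotype difference was 0.323. Precision is limited by how few arrays there were. A difference between a group wholly at the floor and one wholly above it is a bound, given as "at least".

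Probe sets were named from the platform annotation, by which 10833 had 1 symbol, 396 had several and 1193 were not listed. Genes were named by a rule: all cyclin D genes, members called, up to 4 others of a class with the smallest p for the average and up to 2 in each other comparison, and of the wider lists those called and up to 3 per list and genotype comparison. Birc5, Mad2l1 and the other members given by range fall outside it. The members, the lists and the alternatives were chosen with earlier results of these data known. Same-numbered arrays of the 2 genotypes deviated together within each muscle, with correlations of 0.39, 0.711 and 0.66 in QF and 0.182, 0.114 and 0.231 in TA, so a fit with the number as a block is given beside results it changed. Alternatives changed the scaling, floor, filter, variance model, arrays and block. Plots used matplotlib 3.10.9 under Python 3.11.15.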

Additional observations from a re-analysis of the deposited data

How the results depend on the processing

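Leaving out each of the 12 arrays in turn gave 0 to 1 of the listed genes' probe sets called in QF, 0 to 1 for the average and 0 to 2 for TA minus QF in controls. The QF call and the calls for TA minus QF appeared without the control QF array 3. An average call appeared without the Dysf_null QF array 1 or 2 or the control QF array 2 or 3. For the wider lists the ranges were 0 to 2 in QF, 0 to 1 in TA, 0 to 4 for the average and 0 to 0 for TA minus QF in Dysf_null. Probe sets higher at an unadjusted p under 0.05 ranged from 5 to 13 in QF and from 2 to 4 in TA, with 45 to 48 tested. Apart from the replicate block within each muscle, the shares over all probe sets in the refits of this section are not given. Their counts thus show only how calls move with the processing.

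With an array left out, the replication core median ranged from 0.083 to 0.52 in QF, from -0.13 to 0.33 for TA minus QF in controls and from -0.28 to 0.027 for the interaction. The median of other replication genes ranged from 0.24 to 0.68 in QF, from -0.066 to 0.35 in TA, from 0.16 to 0.59 for TA minus QF in controls and from -0.25 to 0.29 in Dysf_null. The mitosis median ranged from -0.16 to 0.10 for TA minus QF in controls and from -0.49 to -0.068 for the interaction.

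With the replicate block within each muscle, 2 of the listed genes' probe sets were called in QF and 3 for the average, and 4, 1 and 9 of the wider lists in QF, TA and the average. The block changed no other call of a listed gene. Arrays of the same number from the 2 muscles of a genotype correlated at -0.141 to 0.123, and the labels do not say whether they share a mouse. With that block 0 of the wider lists were called for TA minus QF in Dysf_null.

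Without both QF arrays numbered 2, chosen after seeing the data, the replication core median was 0.74 in QF and 0.34 for TA minus QF in controls, that of other replication genes was -0.26 for TA minus QF in Dysf_null, and the mitosis interaction was -0.54. There, 14 of 48 probe sets of the listed genes were higher at an unadjusted p under 0.05 in QF, and 1 was called for the average. The wider lists had 1 call in TA, 5 for the average and 0 for TA minus QF in Dysf_null.

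A floor at the 10th percentile gave medians of 1.10 for mitosis in QF, -0.073 for other replication genes in TA, 0.61 for these in TA minus QF in controls and 0.22 for the replication core in TA minus QF in Dysf_null. A floor at the 40th gave 0.32 for the core in QF, 0.28 and 0.14 for mitosis in QF and TA, and 0.11 for the mitosis interaction. Averaging the probe sets of a gene gave 0.27 for the core and 0.36 for cyclin D in QF, and -0.077 for the cyclin D interaction. Median centring gave 0.53 for other replication genes in TA minus QF in controls. A filter of 6 arrays gave 0.11 for the core in TA minus QF in Dysf_null. Array weights gave 0.79 for the core in QF and 0.26 in TA minus QF in controls, and called 2 listed probe sets for the average, with 2 of the wider lists in TA and 5 for the average.

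The wider lists' call in QF became 0 with median centring, without a filter, without the variance trend and with the compared arrays alone. Their call in TA became 1 with the deposited scaling and with the compared arrays alone, the average 1 with median centring, and TA minus QF in controls 1 without a filter. Their call for TA minus QF in Dysf_null became 0 with the deposited scaling, median centring, the lower floor, the filter of 6 arrays, no trend and the compared arrays alone.

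Signs turned for 3 genes with small differences. Ezh2 had -0.026 for TA minus QF in Dysf_null with the deposited scaling. With an array left out, it ranged from -0.12 to 0.13 for TA minus QF in controls (above 0 without the control QF array 3 or the control TA array 1) and from -0.016 to 0.24 for the interaction (below 0 without the control QF array 3). Ccnd2 in QF ranged from -0.19 (without the Dysf_null QF array 2) to 0.56, and Tk1 (161150_at) on average from -0.72 to 0.049 (above 0 without the Dysf_null QF array 3 or the control QF array 1). The causes were not tested. Of the other values for named genes, 2389 kept their direction and side of the threshold, 64 lost a call and 40 gained one. Levels at the floor limit Cdk1, Top2a, Prim1, Mcm6 and Kif20a, and of the wider lists Smc2, Uhrf1, Orc2, Gmnn and Cdkn1b (161010_r_at).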

Other observations

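Of the 41 listed genes, Mcm2, Mad2l1, Ezh2 and Ccnd2 lie on chromosome 6 with Dysf, with 72, 110, 265 and 373 protein-coding genes between them and Dysf in the RefSeq gene order of GRCm38.p6. Their average genotype differences were 0.18, 0.26, 0.30 and 0.29 on the log2 scale, and none passed the test.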
